A study of Drosophila melanogaster with 25 samples.

Results

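The genes of the cytosolic ribosomal proteins of Drosophila melanogaster were examined in RNA-seq libraries in which the activity of the cadherin Fat had been altered. The members were all genes whose symbol begins with RpL, RpS, RpLP or RpSP followed by a number, together with sta, which encodes the small-subunit protein known as RpSA in other animals. This gave 93 of the 17208 genes in the deposited tables. By symbol, 54 were counted with the large subunit and 39, including sta, with the small subunit. The rule used symbols alone and no measured level, although it was set with earlier results of these data known. Of the 93 genes, 21 lie on chromosome arm 2R, 23 on 3R, 19 on 2L, 15 on the X chromosome, 14 on 3L and 1, RpS3A, on chromosome 4.

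The ribosome is built from ribosomal RNA and one copy of nearly every ribosomal protein, so the proteins are needed in about equal numbers. Their messages are among the most abundant in growing cells, and in flies the loss of 1 copy of many of these genes gives the Minute phenotype of slow growth and short bristles. Several genes have a paralogue, and in the fly some paralogues, among them RpS5b, RpS10a, RpS19b and RpL22-like, are best known from the germ line. Fat restrains growth through the Hippo pathway and orients cells in the plane of the tissue, and a fragment of its intracellular domain can enter mitochondria.

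FtICD samples came from a stock in which ubi-Gal4, a ubiquitously expressed driver, was combined with UAS-FtICD-3xFLAG, which encodes the intracellular domain of Fat with a tag, in animals that keep their own ft gene. They comprised 4 libraries of embryos aged 16 to 20 h, 3 of larval wing imaginal discs and 3 of larval eye-brain complexes. The ft null samples were 3 libraries of eye-brain complexes of genotype ft fd5-5/ft X13, which is 2 alleles in combination. All controls were w1118, with 4 libraries of embryos, 3 of wing discs, 2 of eye-brain complexes beside the FtICD set and 3 of eye-brain complexes beside the ft null set. All animals were kept at 25 C. Embryos and the ft null set were read on a NovaSeq X Plus, and wing discs and the FtICD eye-brain libraries with their controls on a NovaSeq 6000. Any other difference between the mutant stocks and w1118 cannot be told apart from the transgene or the alleles. No label says that the libraries came from separate animals or cultures, so each p measures the spread between these libraries, which may be technical.

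Total counts per library ranged from 15016561 to 54256669, with the ft null set the shallowest. Counts of ft were higher by 5.55 ± 0.16 (log2, ± SE) in FtICD embryos, 4.74 ± 0.12 in FtICD wing discs and 5.02 ± 0.15 in FtICD eye-brain complexes, where the transgene itself holds ft sequence, and by 0.54 ± 0.07 in the ft null, whose alleles still give counts. Markers of the labelled tissues were present. The summed level of 6 wing disc markers was 1840 to 2860 CPM, counts scaled to 1000000 per library, in wing discs. It was also 949 to 1120 CPM in FtICD eye-brain complexes and 1520 and 1720 CPM in their controls, with hth high in both tissues. Among the 6, vg stood at 51.6 to 84.8 CPM in wing discs against 2.80 to 3.72 CPM in those eye-brain complexes. In the same libraries nub stood at 67.2 to 102 CPM in FtICD and 168 to 271 CPM in wild-type wing discs, against 2.17 to 8.49 CPM. The 5 eye disc markers summed to 141 to 251 CPM in FtICD eye-brain complexes, 105 and 131 CPM in their controls and 2.77 to 19.8 CPM in wing discs. FtICD eye-brain replicate 3 stood apart, with 4060 CPM of 5 fat body markers against 272 and 287 CPM in the other FtICD libraries, and with 11100 CPM of 5 salivary gland markers against 7.98 and 12.7 CPM. Ribosomal RNA took 12.1% to 16.2% of counts in FtICD embryos against 4.22% to 6.02% in wild type, 4.4% to 10.0% in FtICD eye-brain complexes against 11.4% and 15.1%, and 0.471% to 0.736% in the ft null against 0.946% to 1.44% in its wild type. Because these are bulk samples, fewer cells of a kind and less RNA per cell cannot be told apart.

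Ribosomal protein genes were lower in FtICD embryos. Leaving ribosomal RNA and mitochondrial genes out of the total, the 93 genes took 10.5% to 11.1% of counts in the 4 FtICD libraries and 12.5% to 14.2% in the 4 wild-type libraries. In FtICD wing discs they took 10.2% to 12.7% against 10.8% to 11.2%. In FtICD eye-brain complexes they took 7.80% to 9.67% against 8.5% and 10.5%, and in the ft null 3.12% to 3.42% against 2.86% to 3.04%. The groups were apart in embryos and in the ft null set, in opposite directions, and overlapped in the other pair of comparisons. The eye-brain controls of the 2 tables differed by more than any mutant from its control, and levels are therefore compared only within a table.

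In embryos, the quasi-likelihood test of edgeR, with p adjusted by the Benjamini-Hochberg method and a threshold of 0.05, called 55 of 90 tested members lower and 12 higher. Over all 11422 genes tested, 25.8% were called lower and 26.7% higher. The median log2 fold change of the members was -0.31, beside 0.00 for all genes tested. By subunit, 32 of 53 large-subunit genes were lower and 7 higher, with a median of -0.32, and 23 of 37 small-subunit genes were lower and 5 higher, with a median of -0.30. All 55 lower genes had every FtICD library below every wild-type library, and 11 of the 12 higher genes had every FtICD library above, the exception being RpL29. Among all genes called, 87.4% of the lower and 87.3% of the higher were separated in this way. The 5 muscle markers had a summed level of 14800 to 16600 CPM against 19800 to 21900 CPM in wild type, but 2 were called lower and 1 higher, with Act57B at -0.71 ± 0.08 and wupA at 0.32 ± 0.11. In the same embryos haemocyte markers stood at 96.8 to 118 CPM against 74.1 to 84.6 CPM. Other marker sums were apart as well. Neurons and glia stood at 518 to 537 against 435 to 487 CPM, with 2 markers called higher and 1 lower. Wing disc markers stood at 627 to 752 against 530 to 593 CPM, with 3 higher and 0 lower. Eye disc markers, at 18.0 to 22.7 against 24.9 to 31.1 CPM, had 1 lower and 0 higher. The part of cell composition in the ribosomal protein result was not tested.

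**Figure D1:**
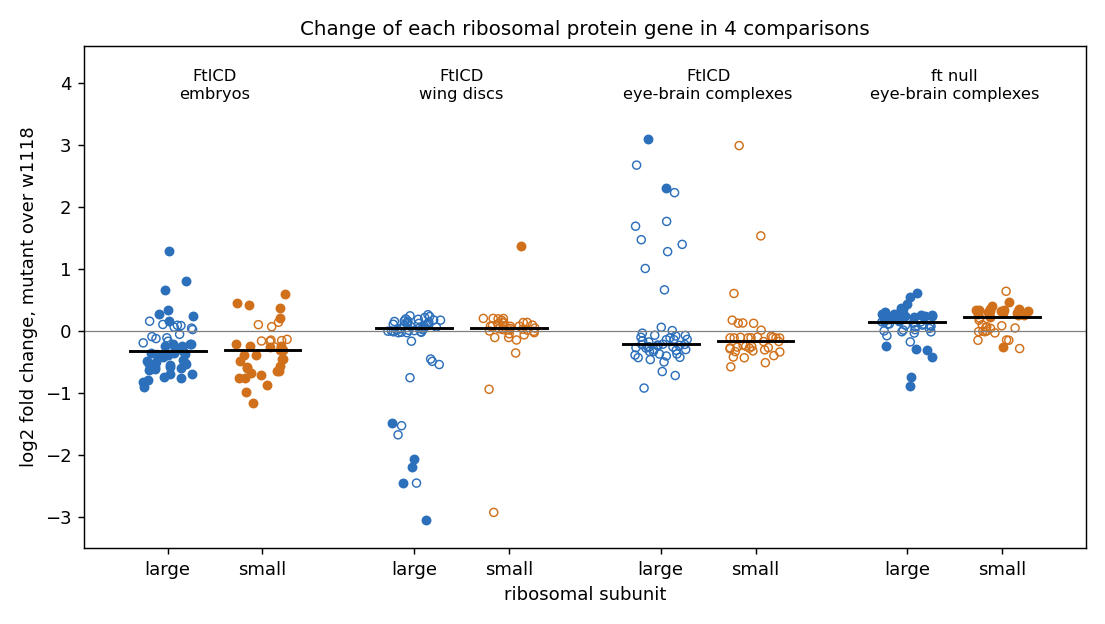
Log2 fold changes of the ribosomal protein genes, mutant against w1118, in the 4 comparisons, with large-subunit and small-subunit genes side by side. Each point is 1 gene, filled where it passed the test and open where it did not, and black bars are medians: the embryo points lie mostly below 0 (medians -0.32 and -0.30) and the ft null points mostly above (0.15 and 0.23).

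The gene that fell most in embryos was sta (FBgn0003517; X chromosome, 1481797 to 1483413 in the dm6 assembly), whose product sits where mRNA leaves the small subunit. Its level was 1511, 1825, 1990 and 1979 CPM in the 4 FtICD libraries and 4349, 4096, 4122 and 3769 CPM in wild type. The libraries of each group were close together and far from the other group, with a log2 fold change of -1.16 ± 0.09 (adjusted p = 6.3e-06). RpS10b (FBgn0285947; X, 19598031 to 19599806), a protein of the small-subunit head, measured 632, 612, 602 and 660 CPM in FtICD embryos against 1348, 1218, 1236 and 1127 CPM, a change of -0.98 ± 0.07 (adjusted p = 3.7e-06). RpL4 (FBgn0003279; 3R, 27922821 to 27924888), whose protein lines the tunnel through which the nascent chain leaves, measured 1302, 1471, 1548 and 1570 CPM against 2818, 2660, 2882 and 2604 CPM, a change of -0.90 ± 0.08 (adjusted p = 8.0e-06). For both genes the highest FtICD library stayed well below the lowest wild-type library. RpS26, at the mRNA exit channel, fell by 0.87 ± 0.07, and RpL18 by 0.82 ± 0.07. RpS6, the substrate of the growth-regulated S6 kinase, fell by 0.75 ± 0.07. RpL8, which supports the catalytic centre, fell by 0.76 ± 0.09, and the stalk proteins that recruit translation factors fell less, RpLP0 by 0.37 ± 0.07 and RpLP1 by 0.32 ± 0.06.

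The 12 genes higher in FtICD embryos included several that encode the smallest ribosomal proteins. RpL38 was the highest, at 722, 643, 570 and 710 CPM against 358, 236, 245 and 241 CPM, a change of 1.29 ± 0.14 (adjusted p = 3.6e-05). Wild-type replicate 1 was the highest of its group and still below every FtICD library. In mice RpL38 is known for a role in the translation of Hox messages. RpL41, a peptide of 25 residues that bridges the 2 subunits, measured 572, 524, 473 and 615 CPM against 322, 327, 313 and 280 CPM (0.81 ± 0.09, adjusted p = 4.6e-05). RpL39, a 51-residue protein at the exit tunnel, rose by 0.66 ± 0.09 (adjusted p = 0.0002), and RpS28b, with 65 residues, by 0.60 ± 0.07 (adjusted p = 8.0e-05). All 4 were separated from wild type in every library. Larger proteins were also among the 12: RpS3A, with 268 residues, measured 3527, 3432, 3228 and 3573 CPM against 2775, 2516, 2645 and 2383 CPM (0.42 ± 0.07, adjusted p = 0.00056), and RpL10, which joins the large subunit late in its assembly, rose by 0.35 ± 0.07 (adjusted p = 0.0017). RpS27, RpS5b, RpL21, RpL29, RpS29 and RpL35 rose by 0.46 to 0.17.

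Of the 2 genes whose proteins are made as fusions with ubiquitin, RpL40 fell by 0.29 ± 0.06 (adjusted p = 0.0018), while RpS27A, at 1380 to 1490 CPM in FtICD and 1285 to 1438 CPM in wild type, did not pass the test and its groups overlapped.

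The embryo values varied with the length of the encoded protein. Of 11 tested genes encoding fewer than 100 residues, 7 were higher and 3 lower, with a median of 0.24. Of 51 genes encoding from 100 to fewer than 200 residues, 2 were higher and 32 lower, with a median of -0.25. Of 28 genes encoding 200 residues or more, 3 were higher and 20 lower, with a median of -0.49. Across the 90 genes the Spearman correlation of the log2 fold change with residues was -0.44, a description over genes that are measured in the same libraries and are not independent. The tallies by length were made after the values were seen. Message length moves with protein length, and the correlation with exon length was -0.37, so the 2 lengths cannot be told apart. Genes on the X chromosome had a median of -0.46, with 12 of 15 lower and 2 higher, beside -0.25 for the other 75 genes, of which 43 were lower and 10 higher.

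**Figure D2:**
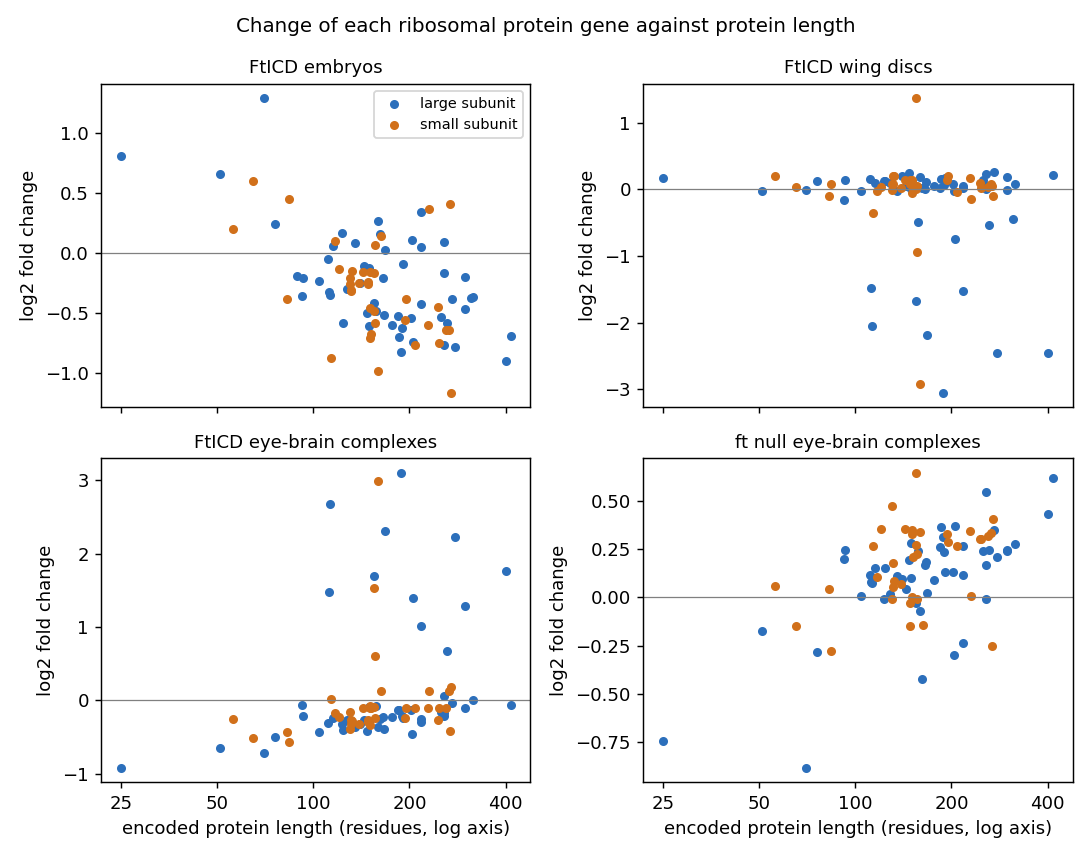
Log2 fold change of each ribosomal protein gene (vertical axis, scaled per panel) against the length of its protein in residues (horizontal log axis), 1 panel per comparison. The cloud slopes down in embryos (Spearman rho -0.44) and up in FtICD eye-brain complexes (0.51) and in the ft null (0.44), and is flat in wing discs (-0.06).

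More ribosomal protein genes were higher than lower in the ft null, by smaller amounts than in embryos. In eye-brain complexes, 40 of 88 tested members were higher and 7 lower, beside 23.5% and 21% of all 9978 genes tested, and the median of the members was 0.17 against 0.00 for all genes. With libraries scaled by their total counts instead of TMM the split was 32 higher and 11 lower. The shares of all genes called under that scaling are not given here. Large-subunit genes numbered 22 higher and 6 lower of 51, and small-subunit genes 18 higher and 1 lower of 37. All 40 higher genes had every ft null library above every wild-type library, and 6 of the 7 lower genes had every one below, beside 99.4% and 98.7% of all genes called higher and lower. Of the 41 members that did not pass the test, 10 did not overlap between groups, beside 22.8% of all genes not called, which is near that share. The count of lower genes was 4 without ft null replicate 1 or without wild-type replicate 1 or 3, 3 without ft null replicate 3 and 12 without wild-type replicate 2, and only RpL29, RpL34a and RpL41 were called lower in the full set and in every such subset. The libraries also differed in other respects. Mitochondrial genes took 0.144% to 0.418% of counts in the ft null against 0.541% to 1.11%, and ribosomal RNA was lower as well, as given above. The 4 haemocyte markers summed to 315 to 398 CPM in the ft null against 110 to 129 CPM, and all 4 were called higher, while 5 markers of neurons and glia summed to 988 to 1030 CPM against 1380 to 1540 CPM, and all 5 were called lower. Of 5 eye disc markers 4 were lower and 1 higher (397 to 424 CPM against 562 to 603 CPM), 4 of 5 salivary gland markers were lower (3.05 to 11.1 CPM against 22.6 to 48.9 CPM), 4 of 5 tested germ-line markers were lower (6.06 to 7.20 CPM over 8 markers against 17.4 to 21.9 CPM) and 3 of 6 wing disc markers were lower. Their part in the result was not tested.

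RpL3 (FBgn0020910; 3R, 11221894 to 11225173), a protein beside the peptidyl transferase centre, was at 994, 922 and 904 CPM in the ft null and 645, 617 and 574 CPM in wild type, a change of 0.62 ± 0.07 (adjusted p = 0.00044). RpL8 was at 892, 798 and 802 CPM against 583, 600.1 and 526 CPM (0.54 ± 0.08, adjusted p = 0.0011). Both genes had fallen in FtICD embryos, RpL3 by 0.68 and RpL8 by 0.76. An antisense RNA and a small nucleolar RNA overlap RpL3, the longer overlap covering 412 bases. The library kit does not mark the strand, so the RpL3 value may include their counts. RpL4 rose by 0.43 ± 0.06, and sta, at 1140, 1034 and 1035 CPM against 819, 844 and 755 CPM, by 0.41 ± 0.07 (adjusted p = 0.0029). RpL41 fell, from 332, 268 and 345 CPM in wild type to 184, 194 and 187 CPM in the ft null, a change of -0.74 ± 0.10 (adjusted p = 0.00083). The 3 ft null libraries lay closer together than the controls and all below them. RpL34a fell by 0.42 ± 0.09 (adjusted p = 0.007), and RpL15, RpL29, RpS3A and RpL10 fell by 0.30, 0.28, 0.25 and 0.23. RpL38 had a change of -0.88 ± 0.28 (adjusted p = 0.037), with 85.5, 140 and 118 CPM against 225, 129 and 281 CPM, so its groups overlapped.

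The embryo and ft null comparisons have no library in common. Of the 55 genes lower in FtICD embryos, 36 (65.5%) were higher in the ft null and 0 lower. Of the 12 higher in FtICD embryos, 5 (41.7%) were lower in the ft null, namely RpL10, RpL29, RpL38, RpL41 and RpS3A, and 0 higher. Among the 9436 other genes tested in both, 2462 were lower in FtICD embryos, of which 27.2% were higher and 15.6% lower in the ft null, and 2544 were higher, of which 29.8% were lower and 20.7% higher. Across genes the Spearman correlation of the 2 sets of log2 fold changes was -0.73 for the 88 members and -0.12 for the other genes. Library composition also differed in opposite directions. Mitochondrial genes took 1.66% to 2.19% of counts in FtICD embryos against 0.602% to 0.924% in wild type. In the ft null they took 0.144% to 0.418% against 0.541% to 1.11%. Ribosomal RNA was likewise higher in FtICD embryos and lower in the ft null. The 2 comparisons thus differ in tissue, age and library composition as well as in the direction in which Fat was altered, so these cannot be told apart.

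**Figure D3:**
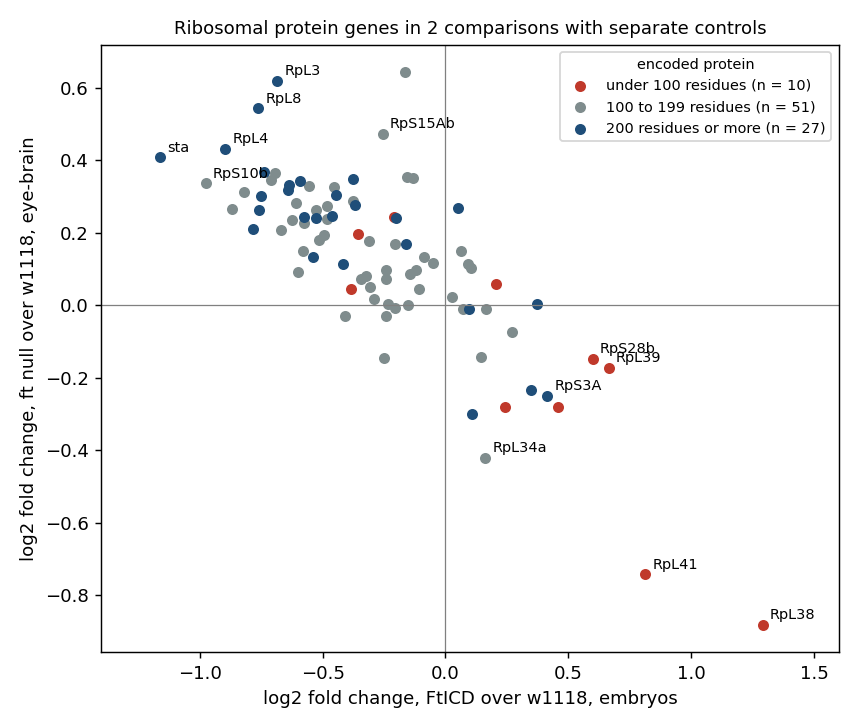
Log2 fold change in FtICD embryos (horizontal axis) against that in ft null eye-brain complexes (vertical axis) for 88 ribosomal protein genes, coloured by protein length. The points run from the upper left, where sta (-1.16, 0.41) and RpL4 lie, to the lower right, where RpL38 (1.29, -0.88) and RpL41 lie.

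The length order of the embryos was turned over in the ft null. Genes encoding fewer than 100 residues had a median of -0.16, with 2 of 10 higher and 3 lower. Genes of intermediate length had a median of 0.13, with 18 of 51 higher and 1 lower. Those encoding 200 residues or more had a median of 0.26, with 20 of 27 higher and 3 lower. The Spearman correlation with residues was 0.44 over the 88 genes. X-linked genes numbered 11 higher and 0 lower of 15, with a median of 0.30, beside 29 higher and 7 lower of 73 others, with a median of 0.13.

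In FtICD wing discs most ribosomal protein genes did not pass the test. Of 88 tested members 5 were lower and 1 higher, against 9.97% and 7.67% of all 9416 genes tested, and the median of the members was 0.05. Without adjustment, 12 of the 88 members had a p under 0.05, beside 3075 of the 9416 genes tested. The 5 lower genes all belong to the large subunit. RpL18 (FBgn0035753; 3L, 7240203 to 7241351) measured 220, 66.6 and 47.3 CPM in the FtICD libraries against 1101, 1076 and 588 CPM, a change of -3.05 ± 0.61 (adjusted p = 0.016). RpL4 measured 705, 243 and 112 CPM against 2016, 1839 and 1959 CPM (-2.45 ± 0.61, adjusted p = 0.033). In both genes the FtICD libraries differed from each other by more than 4-fold, with replicate 1 closest to wild type. RpL34b fell by 2.19 ± 0.59 (adjusted p = 0.046), RpLP2 by 2.06 ± 0.54 (adjusted p = 0.041) and RpLP1 by 1.48 ± 0.41 (adjusted p = 0.049). The 1 higher gene was RpS19b, a paralogue of low level here, at 5.34, 3.78 and 5.84 CPM against 1.42, 2.11 and 2.26 CPM (1.37 ± 0.27, adjusted p = 0.016).

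None of the 6 wing disc calls held when each library was left out in turn. Without FtICD replicate 1, 12 members were lower, among them RpL24 (-2.93 ± 0.17) and RpL13 (-2.38 ± 0.21). Without FtICD replicate 2 or wild-type replicate 2, 0 were lower, and without FtICD replicate 3 or wild-type replicate 1, 2 and 1 were lower. The higher genes numbered 3 without FtICD replicate 3 and 0 without wild-type replicate 2. Shares of all genes called in these subsets are not given here. Fat body markers summed to 334, 671 and 61.6 CPM in FtICD wing disc replicates 1, 2 and 3, against 26.3 to 81.4 CPM in wild type. Of these 5 markers 1 was called higher. Of 6 wing disc markers 2 were lower and 0 higher, with nub at 67.2 to 102 CPM against 168 to 271 CPM. Of 5 salivary gland markers 1 was lower (3.03 to 23.7 CPM against 31.6 to 61.2 CPM), as was 1 of 5 muscle markers. Of 2 tested markers of neurons and glia 1 was higher. The part of cell composition in these values was not tested.

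In FtICD eye-brain complexes 2 of 88 tested members were higher and 0 lower, beside 3.15% and 1.08% of all 10841 genes tested. At an unadjusted p under 0.05 there were 14 of the 88 members, beside 2443 of the 10841 genes. DESeq2 called 10 members higher and 0 lower, and the share of all genes it called is not given here. The median of the members was -0.19 against 0.01 for all genes, and all 10 genes encoding fewer than 100 residues had a negative value, with a median of -0.50, although none passed. Without FtICD replicate 3 the median was -0.29, and 9 of the 10 were below 0. The 2 called genes were 2 of those lower in wing discs. RpL18 measured 949, 752 and 872 CPM in FtICD against 138 and 62.3 CPM (3.10 ± 0.39, adjusted p = 0.026). RpL34b measured 304, 319 and 213 CPM against 74.5 and 37.6 CPM (2.31 ± 0.37, adjusted p = 0.038). In both genes the lowest FtICD library was more than 2-fold above the highest control, but 0 members passed without FtICD replicate 1 or without wild-type replicate 2. With replicate 3, the library rich in fat body and salivary gland messages, left out, 6 members were higher: RpL18 by 3.09, RpL34b by 2.48, RpL24 by 1.8, RpS19b by 1.63, RpLP1 by 1.56 and RpL13A by 1.54. RpL22 and RpL38 were then lower, by 0.50 and 0.47. The share of all genes called without replicate 3 is not given here. RpL22 rested on that library most of all, at 151, 154 and 1278 CPM in the FtICD libraries against 225 and 208 CPM.

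The same few genes varied widely across all larval libraries of the FtICD table, and this set was chosen after the values were seen. Among the 85 members with a mean of at least 50 CPM over these 11 libraries, 12 had a highest library at least 4-fold above the lowest. The share over all 3522 genes at that level was 12.7%, so the number of wide-ranging members is near the background. RpS10b ranged 24.1-fold, RpL18 23.1-fold, RpL4 17.9-fold, RpL23A 15.9-fold, RpLP2 15.0-fold and RpL34b 13-fold. RpL24 (9.32-fold), RpL22 (8.05-fold), RpL13 (6.90-fold), RpLP1 (5.55-fold), RpL13A (4.69-fold) and RpL41 (4.36-fold) completed the set. Just outside lay sta at 3.62-fold and RpL38 at 3.50-fold, and the median of the other 73 members was 2.07-fold. Of the 12 genes, 11 encode large-subunit proteins and 1 a small-subunit protein. They ranged 1.25-fold to 2.29-fold over the 8 embryo libraries and 1.12-fold to 1.88-fold over the 6 libraries of the ft null table. Without FtICD eye-brain replicate 3, RpL22 and RpL41 no longer reached 4-fold. Counts of RpL23A, RpL22 and RpL24 may include those of genes that overlap them. The longest single overlaps cover 421, 377 and 273 bases, and RpL13A hosts a small nucleolar RNA.

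**Figure D4:**
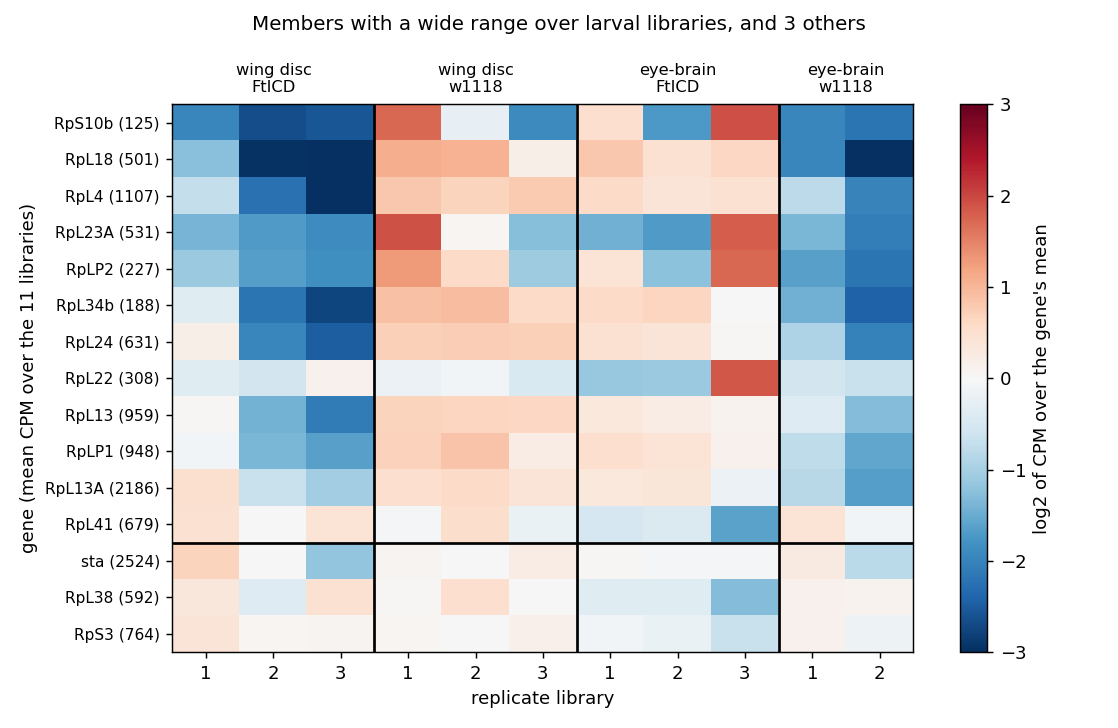
Log2 of CPM over the gene's mean across 11 larval libraries for the 12 wide-ranging genes and for sta, RpL38 and RpS3, with 1 column per library and colours that saturate at 3 units either side of 0. Most wide-ranging genes are high in wild-type wing discs and FtICD eye-brain complexes and low in FtICD wing discs and wild-type eye-brain complexes, while RpS3 varies little.

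Summed over the 12 genes, the level was 8178, 3738 and 3351 CPM in FtICD wing discs and 14440, 12920 and 10400 CPM in wild-type wing discs. It was 10220, 9387 and 11570 CPM in FtICD eye-brain complexes and 5116 and 2964 CPM in their controls. Because the genes were chosen for their range over these libraries, the sums are a description and no test of either comparison. Of 87 members tested in both tissues, 9 (10.3%) had a log2 fold change of -1 or below in wing discs and of 1 or above in eye-brain complexes, beside 4.47% of all 9224 genes. They were RpL4, RpL13, RpL18, RpL23A, RpL24, RpL34b, RpLP1, RpLP2 and RpS10b, and all but RpL23A kept the pattern without FtICD eye-brain replicate 3. Outside the ribosomal proteins the translation initiation factor gene eIF3a, noticed after the values were seen, passed the test in both directions, at -3.0 ± 0.47 (adjusted p = 0.0068) and 3.19 ± 0.52 (adjusted p = 0.04).

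Tests of the difference between FtICD effects bore on the same genes. Between eye-brain complexes and wing discs the effect differed for 12 members, against 12% of all genes tested, and each of the 12 was more positive in eye-brain complexes. The difference was 6.12 ± 0.70 for RpL18 (adjusted p = 1.9e-05), 5.86 ± 1.19 for RpS10b (adjusted p = 0.003), 4.48 ± 0.68 for RpL34b (adjusted p = 0.00023) and 4.20 ± 0.69 for RpL4 (adjusted p = 0.00045). The share of members, 12 of 90, is near that of all genes.

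Between wing discs and embryos the FtICD effect differed for 33 members, 29 of them more positive in wing discs, against 27.7% of all genes. Examples were RpS6 (0.81 ± 0.14), RpS5a (0.81 ± 0.17) and RpS14b (0.89 ± 0.18), which fell in embryos. RpL38, which rose in embryos, differed by -1.26 ± 0.33. Between eye-brain complexes and embryos the effect differed for 31 members, 21 more positive and 10 more negative in eye-brain complexes, against 28.2% of all genes. The small proteins were on the negative side, with differences of -1.99 ± 0.35 for RpL38, -1.71 ± 0.35 for RpL41 and -1.30 ± 0.30 for RpL39. The effects of ft null and FtICD in eye-brain complexes differed for 8 members, against 17.2% of all genes. RpL18, RpL34b, RpL24, RpLP1 and RpL4 were more negative in the ft null, by -2.74, -2.24, -1.67, -1.35 and -1.29, while RpL3, RpS15Ab and RpS20 were more positive, by 0.73, 0.69 and 0.62. This count of 8 rose to 16, 13 and 19 without FtICD replicate 2, FtICD replicate 3 and the FtICD table's wild-type replicate 2, and was 5 without any 1 library of the ft null table. The count of 31 for eye-brain complexes against embryos was 14 without wild-type eye-brain replicate 2.

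Among wild-type tissues, ribosomal protein genes stood highest in embryos, although sequencer and tissue cannot be told apart here. In wing discs 74 of 90 tested members were lower than in embryos and 5 higher, beside 50.8% and 36.7% of all 12187 genes. The median of the members was -0.71 and that of all genes -0.48. In eye-brain complexes 77 were lower than in embryos and 4 higher, beside 42.9% and 39.3%, with medians of -0.84 and -0.07. These levels depend on scaling. With total counts in place of TMM the median of all genes shifted by 0.38 and 0.41. The splits of members became 51 lower and 14 higher in wing discs and 58 lower and 12 higher in eye-brain complexes. The shares of all genes called under that scaling are not given here, so these splits cannot be set against all genes. Between eye-brain complexes and wing discs, 22 members were lower in eye-brain complexes and 2 higher, beside 20.9% and 29.2%. The lower genes numbered 47 without eye-brain replicate 1. The 5 higher in wing discs than in embryos became 8 without either eye-brain library, which enters the shared fit, and the 4 higher in eye-brain complexes than in embryos became 2 without eye-brain replicate 1. The 2 higher in eye-brain complexes than in wing discs, RpS5b and RpS10a, became 1 without wing disc replicate 2 or 3 or eye-brain replicate 2.

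RpL22 was at 2297 ± 149 CPM in embryos (SD, n = 4), 241 ± 29.6 CPM in wing discs (n = 3) and 186 ± 9.52 CPM in eye-brain complexes (n = 2). The step from embryo to wing disc was -3.26 ± 0.11 (adjusted p = 1.1e-09), and a non-coding RNA that overlaps 377 bases of RpL22 may share in its counts. RpL38, RpL41 and RpL39 went the other way, higher than in embryos by 0.96, 0.88 and 0.45 in wing discs and by 0.91, 0.96 and 0.40 in eye-brain complexes. RpL38 stood at 319 ± 71.0 CPM in embryos, 620 ± 125 CPM in wing discs and 599 ± 3.73 CPM in eye-brain complexes, and the larval values were within each other's spread. RpL18 fell in steps. It was at 2006 to 2226 CPM in embryos, 527 to 964 CPM in wing discs and 53.7 and 118 CPM in eye-brain complexes. Relative to RpS3, the low eye-brain levels of RpL22 and RpL18 were not seen in the controls of the ft null table. There RpL22 stood at 884, 798 and 850 CPM, RpL18 at 304, 305 and 290 CPM and RpS3 at 274, 302 and 271 CPM. In the eye-brain controls of the FtICD table RpS3 stood at 774 and 639 CPM, above both genes.

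Per kilobase of all exons joined, RpL13A led in wild-type embryos at 5570 ± 283 CPM per kb (SD, n = 4), followed by RpS2 at 4810 ± 431, RpS7 at 4290 ± 206 and RpL14 at 4150 ± 201 CPM per kb. RpS7 and RpL14 lay within their spread. RpL13A also led in wing discs, at 3110 ± 154 CPM per kb (n = 3), while in the eye-brain complexes of the same table it was the 32nd member at 979 ± 377 CPM per kb (n = 2), behind RpL14 at 2680 ± 461 and RpS3A at 2580 ± 176. The order depends on the length used: per kilobase of the longest transcript, RpL13A still led in embryos, but RpS7 was second at 4990 ± 240 and sta, at 4350 ± 257 CPM per kb, came before RpL14, and in eye-brain complexes RpS7 was second at 2590 ± 523 and RpL13A was 36th. The gap between RpL13A and RpS3A was not common to both sets of eye-brain controls. In those of the FtICD table RpL13A stood at 1125 and 643 CPM beside 3647 and 3312 CPM for RpS3A. In those of the ft null table it stood at 895, 1015 and 869 CPM beside 1127, 1042 and 1237 CPM. At the lowest levels, RpL10Aa, RpS28a and RpS28-like had 0 to 4 counts summed over the libraries of each group and were tested nowhere. RpL37b had 80 counts over the 4 wild-type embryo libraries and 0 in wing discs, and was tested in embryos only among the mutant comparisons.

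Paralogue pairs were compared within a library as the log2 ratio of the paralogue named first below to its partner. In embryos 11 pairs had enough counts, and 7 ratios differed between FtICD and wild type at the smallest p that an exact 2-sided permutation test of 4 against 4 allows (p = 0.0286, adjusted over 11 pairs p = 0.0449). RpS5b rose against RpS5a, from a log2 ratio of -5.01 ± 0.20 (SD, n = 4) in wild type to -4.04 ± 0.09 (n = 4) in FtICD. RpS10a rose by 1.10 against RpS10b, which fell itself, while RpS10a had 149 and 141 counts in the 2 groups. RpLP0-like and RpL24-like rose by 0.47 and 0.32 against their partners, which were called lower. RpLP0-like and RpL24-like are the fly counterparts of yeast assembly factors of the large subunit, not alternative ribosomal components. Both were nevertheless counted with the large subunit here. The ratios of RpS19b and RpL7-like rose by 0.46 and 0.36, with their partners RpS19a and RpL7 called lower. None of RpS10a, RpLP0-like, RpL24-like, RpS19b and RpL7-like was called by itself. RpL7-like measured 72.0 to 86.3 CPM in FtICD against 84.2 to 94.1 CPM in wild type. It overlaps another gene on its strand over 1771 bases. RpS14b fell by 0.25 against its neighbour RpS14a, from which reads are hard to tell apart because both encode proteins of 151 residues from near-identical tandem copies. The ratios of RpL34b to RpL34a, RpL22-like to RpL22, RpL37b to RpL37a and RpS15Ab to RpS15Aa did not pass. With a pseudocount of 0.1 CPM in place of 0.5 CPM, 0 pairs passed, and with any 1 library left out the smallest p is 0.0571, so that none can pass.

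In larval tissues the smallest exact p is 0.1 for 3 libraries against 3 and 0.2 for 3 against 2, so the pairs are described without a test. The share of RpL34b in the counts of the RpL34 pair was 57.4% in wild-type and 20.0% in FtICD wing discs, and 20.2% in wild-type and 60.6% in FtICD eye-brain complexes, while it stayed at 69.9% and 68.0% in embryos. The share of RpL24-like in its pair ran opposite, at 16.0% and 49.3% in wing discs and 45.3% and 16.9% in eye-brain complexes, with RpL24 at 738, 168 and 118 CPM in FtICD and 1083, 1105 and 1072 CPM in wild-type wing discs. Neither change of RpL24 passed the test with all libraries. In the ft null table RpL34b took 77.9% in the mutant and 72.1% in wild type, with RpL34a the gene that fell. RpS15Ab took 32.9% of its pair in the ft null and 26% in wild type, at 104, 92.5 and 94.1 CPM against 67.5, 67.0 and 75 CPM (0.47 ± 0.07, adjusted p = 0.0017). RpS5b took 3.01% of its pair in wild-type embryos, 5.73% in FtICD embryos and under 1% in every larval group, with 0.469 CPM in wild-type wing discs and 7.23 CPM in eye-brain complexes. Germ-line markers, 8 genes, summed to 16.2 to 17.9 CPM in FtICD and 12.9 to 19.0 CPM in wild-type embryos, and the groups overlapped. The sum hides opposite moves, and of 7 markers tested 1 was called higher and 1 lower. At low levels, nos stood at 1.56 to 2.26 CPM in FtICD against 0 to 0.0738 CPM. By contrast bam stood at 0.0749 to 0.254 CPM against 0.306 to 1.33 CPM.

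**Figure D5:**
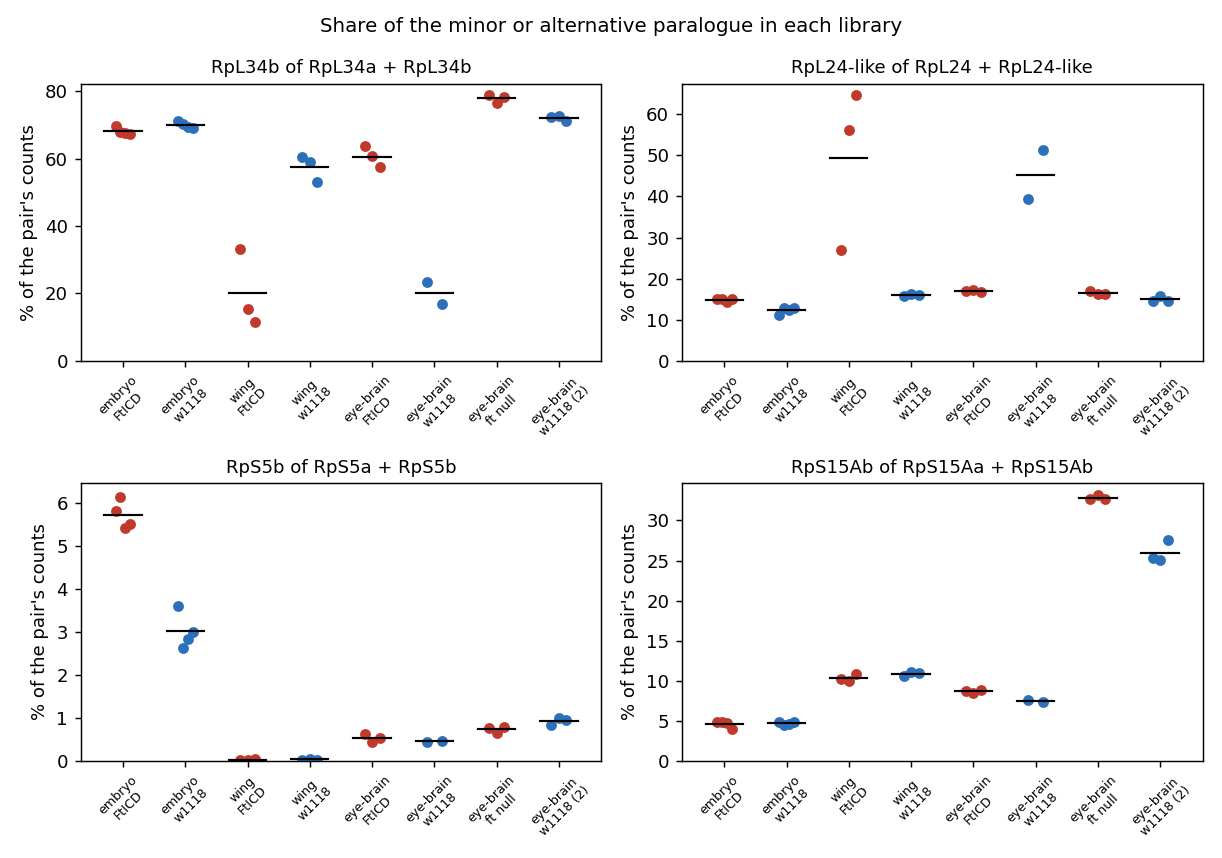
Percentage of a pair's counts taken by RpL34b, RpL24-like, RpS5b and RpS15Ab in each library of the 8 groups, with bars at group means; w1118 (2) marks the controls of the ft null table. RpL34b is low in FtICD wing discs (20.0%) and wild-type eye-brain complexes (20.2%), where RpL24-like is high (49.3% and 45.3%).

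Other gene groups of protein synthesis were counted in the same fits, in which 25.8% of all genes were lower and 26.7% higher in embryos, and 21% lower and 23.5% higher in the ft null. Mitochondrial ribosomal protein genes numbered 48 lower and 5 higher of 73 in FtICD embryos (median -0.32), but 12 lower and 9 higher in the ft null (median -0.10). Ribosome biogenesis genes numbered 18 lower and 7 higher of 41 in embryos and 14 higher and 1 lower in the ft null. Among them Nop60B, the pseudouridine synthase of ribosomal RNA, fell in embryos by 0.57 ± 0.08. Translation factor genes numbered 19 lower and 5 higher of 40 in embryos and 21 higher and 7 lower in the ft null. In wing discs and FtICD eye-brain complexes at most 3 genes of any of these lists passed in 1 direction.

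Several shorter lists are set beside the same shares of all genes (embryos 25.8% lower and 26.7% higher, ft null 21% and 23.5%). Of 7 genes related to ribosomal proteins in their regulation or function, 4 were lower and 2 higher in embryos, and 3 were higher and 0 lower in the ft null. Rack1, a scaffold on the small subunit, fell by 0.84 ± 0.08 in embryos and rose by 0.38 ± 0.06 in the ft null. Of 6 factors that act at ribosomal protein promoters, 3 were lower and 1 higher in embryos, and 3 were higher and 0 lower in the ft null. BEAF-32, an insulator protein, fell by 1.08 ± 0.09 in embryos (adjusted p = 9.5e-06) and rose by 0.31 ± 0.06 in the ft null, and Trf2, a TBP-related factor, rose in embryos by 0.58 ± 0.08. Of 13 growth regulators 6 were higher and 2 lower in embryos, with Thor, the translation inhibitor 4E-BP, higher by 1.58 ± 0.23, and 5 were higher and 1 lower in the ft null. Xrp1, a transcription factor induced in Minute cells, rose in the ft null by 1.0 ± 0.07 (adjusted p = 8.4e-05) and had a value of -0.02 ± 0.11 in embryos. It belongs to a list of 7 genes of the response to ribosomal protein loss, of which 3 were lower and 1 higher in embryos and 3 of 5 tested were higher in the ft null.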

How the data were processed

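RNA-seq of 25 libraries was analysed. Per the labels' protocols, samples of 10 ng RNA, of RIN above 8, went into the SMARTer Ultra Low kit, with 12 to 15 amplification cycles and paired reads of 150 bases; the kit keeps no strand. The authors deposited 2 tables of gene values, treated here as estimated counts: they are unscaled, and 31.8% of nonzero values were not whole (tolerance 1e-06). They were rounded to whole counts. Salmon 1.80, Trimmomatic 0.33, FastQC 0.10, edgeR and the build dm6 are listed in the submitters' processing notes. How Salmon was run is not given in the sources used here. Ensembl release 115 (BDGP6.54, the dm6 assembly) placed 17083 genes and all 93 members.

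In R 4.3.3, edgeR 4.0.16 was used with filterByExpr (minimum count 10), TMM scaling and the 2-sided quasi-likelihood F test, with Benjamini-Hochberg adjustment over all genes tested at 0.05. Each mutant was compared with the w1118 libraries of its own tissue and table. Tissue and interaction tests used 1 mean per group. CPM uses TMM-scaled library sizes within each comparison. Pair ratios used log2(CPM + 0.5) and exact permutation tests in Python 3.11.15 with scipy 1.17.1. Alternatives were DESeq2 1.42.0, other scalings, no filter, a replicate block and leaving out each library. The procedure was tested on simulated data. Of 28 library pairs within groups none was a duplicate, with a chi-square per degree of freedom of 7.96 or more. The members, the lists and the rule for named genes (the most changed called members, all paralogues, members highest per length or near 0, the interactions of smallest p) were chosen with earlier results of these data known. No sequences were read, and 1 item is not reported here.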

Additional observations from a re-analysis of the deposited data

Results flagged for a closer look

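Of 82 sets of 4 embryo libraries examined for a library far from the other 3, 3 had one, and chance alone gives about 1 set in 20. RpL18 stood at 927 CPM in FtICD replicate 1, below the other FtICD embryos. RpL38 stood at 358 CPM in wild-type replicate 1, above the other wild-type embryos. The share of counts from mitochondrial genes was 2.19% in FtICD replicate 4, the highest of its group.

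The effect of FtICD differed between tissues by interaction test, in log2 units, and the 3 of smallest p are given for each test. Wing disc minus embryo, the effect differed by 0.81 for RpS6 and RpS5a and 0.89 for RpS14b. Eye-brain minus embryo, it differed by 3.92 for RpL18, 2.15 for RpL13A and -1.99 for RpL38. Eye-brain minus wing disc, it differed by 6.12 for RpL18, 4.48 for RpL34b and 2.92 for RpLP1. The ft null effect minus the FtICD effect in eye-brain complexes was -2.74 for RpL18, -2.24 for RpL34b and -1.35 for RpLP1.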

How the results depend on the processing

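The embryo counts (12 higher, 55 lower) and the 40 higher in the ft null stayed within 1.5 times under every alternative scaling, tool and filter run, and 9 higher and 51 lower embryo calls, and 25 higher and 3 lower ft null calls (RpL29, RpL34a, RpL41), held without any 1 library. DESeq2 gave 8 lower in wing discs, 10 higher in FtICD eye-brain complexes, 2 higher in eye-brain against embryo, 39 lower in eye-brain against wing disc, and 28 and 22 differing effects for eye-brain minus wing disc and ft null minus FtICD. RLE size factors gave 2 higher in eye-brain against embryo and 33 lower in eye-brain against wing disc. Total library size gave 4 higher in FtICD eye-brain complexes, 11 lower in the ft null, and 14 and 12 higher in wing disc and eye-brain against embryo. Leaving out 1 library at a time gave 0 to 3 higher and 0 to 12 lower in wing discs, 0 to 6 higher and 0 to 2 lower in FtICD eye-brain complexes, and 28 to 38 higher and 3 to 12 lower in the ft null. It gave 5 to 8 and 2 to 4 higher in wing disc and eye-brain against embryo, and 1 to 2 higher and 17 to 47 lower in eye-brain against wing disc. For differing effects it gave 22 to 41 (wing disc minus embryo), 14 to 40 (eye-brain minus embryo), 9 to 15 (eye-brain minus wing disc) and 5 to 19 (ft null minus FtICD). Where this left 1 eye-brain control, that library was assumed to vary like the other groups. All these counts are of members only, and the shares of all genes called under each alternative are not given here. The cause of these shifts was not tested. The paralogue ratios, 7 of which passed in embryos, numbered 0 with a pseudocount of 0.1 CPM, and 0 without any 1 library, where the smallest exact p is 0.0571 and no ratio can pass.

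A replicate block, with same-numbered libraries paired, gave 10 higher and 51 lower in embryos, 1 and 6 in wing discs, 9 and 2 in FtICD eye-brain complexes, 27 and 4 in the ft null, 1 higher and 15 lower in eye-brain against wing disc, and 12 differing effects for ft null minus FtICD. Same-numbered libraries correlated at -0.208 to 0.231 in their deviations from group means, and differently numbered ones at -0.231 to 0.193. With 2 to 4 libraries per group the deviations constrain each other. Whether same-numbered libraries share more than a number therefore cannot be decided. RpL22 in FtICD eye-brain complexes turned from 1.28 to -0.51 with the block and ranged from -0.50 without FtICD replicate 3, in which it stood at 1278 CPM, to 1.73 without FtICD replicate 1.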
